A study of Mus musculus with 29 samples.

Results

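Of the 18240 genes in the table, 7 encode the subunits of the GABA-A receptor described here and were chosen by name: Gabra2, Gabra3, Gabra4, Gabra5, Gabrb1, Gabrb2 and Gabrd. All 7 passed the filter on low values, and another 5 subunit genes (Gabrg1, Gabrg3, Gabre, Gabrq and Gabrr2) served as a comparison. RNA came from prefrontal cortex of C57BL/6J mice of both sexes at postnatal day 40, and each library was labelled as a separate replicate of its genotype, treatment and sex. The groups were wild type given vehicle (WT vehicle, 4 female and 4 male libraries), and mice heterozygous for the K228E allele of Tbr1 (Tbr1+/K228E, HT) given vehicle (3 and 3), fluoxetine (4 and 4) or lithium (3 and 4). All HT groups carried the same allele, and WT mice given a drug were not analysed here, so in a comparison of drug-treated HT with WT vehicle the allele and the drug cannot be told apart. Dose, route and duration of treatment were not given in the sources used here.

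GABA-A receptors are chloride channels opened by the inhibitory transmitter GABA and built from several subunits. Alpha and beta subunits form the sites where GABA binds. Receptors with a gamma subunit and the products of Gabra2 or Gabra3 mainly serve synapses, whereas those with the products of Gabra4 and Gabrd, or of Gabra5, lie mainly outside synapses and carry a steady, tonic inhibition. The product of Tbr1 is a transcription factor with a T-box domain, made in cortical excitatory neurons and in projection neurons of the olfactory bulb.

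The genes lie on 5 mouse chromosomes (GRCm38). Gabra2 (chromosome 5, 70957597 to 71095849), Gabra4 (71569749 to 71658308) and Gabrb1 (71658113 to 72149037) are neighbours on chromosome 5, and Gabra4 and Gabrb1 start head to head with 46 bp of exon in common on opposite strands. Gabra3 is on chromosome X (72432681 to 72656848), Gabra5 on chromosome 7 (57407672 to 57510059), Gabrb2 on chromosome 11 (42419757 to 42629028) and Gabrd on chromosome 4 (155384980 to 155398112). RefSeq promoter windows (GRCm38.p6, 250 bases before to 50 after a start) matched 6 of the 7 genes with 10 windows. Below are 4 of them, 5′ to 3′ on the gene's own strand. The first pair is the head-to-head start of Gabra4 and Gabrb1. Gabrb2 is the gene of the 7 whose level correlated most with that of Gabrb1 over all 29 libraries, with group means removed. Without HT fluoxetine male 4, Gabra4 correlated more with Gabrb1 than Gabrb2 did (Pearson's r = 0.66 and 0.59). Gabra5 is the gene of the 7 that varied most with olfactory bulb markers. Capitals mark GTGTGA, the core of the T-box motif, or its reverse complement TCACAC.
Gabra4 (chr5:71658259-71658558, minus strand): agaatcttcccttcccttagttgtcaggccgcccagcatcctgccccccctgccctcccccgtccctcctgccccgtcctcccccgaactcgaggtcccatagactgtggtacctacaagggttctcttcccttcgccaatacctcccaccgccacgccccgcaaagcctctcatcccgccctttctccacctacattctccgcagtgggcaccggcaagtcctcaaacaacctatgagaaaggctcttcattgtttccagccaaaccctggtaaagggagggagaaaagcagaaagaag
Gabrb1 (chr5:71657671-71657970, plus strand): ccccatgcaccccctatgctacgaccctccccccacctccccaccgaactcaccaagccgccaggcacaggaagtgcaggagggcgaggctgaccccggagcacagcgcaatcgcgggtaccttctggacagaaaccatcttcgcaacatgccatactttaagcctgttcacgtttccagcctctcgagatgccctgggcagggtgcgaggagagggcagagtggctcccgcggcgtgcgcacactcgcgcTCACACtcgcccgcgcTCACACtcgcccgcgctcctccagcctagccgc
Gabrb2 (chr11:42420190-42420489, plus strand): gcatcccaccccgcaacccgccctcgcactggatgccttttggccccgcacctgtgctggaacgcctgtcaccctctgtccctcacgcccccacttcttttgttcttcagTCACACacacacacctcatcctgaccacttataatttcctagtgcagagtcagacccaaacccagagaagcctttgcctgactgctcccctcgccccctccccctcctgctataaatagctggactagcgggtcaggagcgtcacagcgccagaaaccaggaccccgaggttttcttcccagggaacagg
Gabra5 (chr7:57510010-57510309, minus strand): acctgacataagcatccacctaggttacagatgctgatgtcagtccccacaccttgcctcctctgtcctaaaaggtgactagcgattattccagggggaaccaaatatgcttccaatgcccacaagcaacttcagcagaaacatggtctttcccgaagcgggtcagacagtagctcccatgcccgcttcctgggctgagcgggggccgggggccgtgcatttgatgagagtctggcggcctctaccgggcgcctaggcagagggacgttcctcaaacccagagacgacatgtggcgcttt
The core was searched on both strands and was found in 2 of the 10 windows, those shown for Gabrb1 and Gabrb2, and in 14.49% of all 32851 RefSeq windows of the same length. The longer form AGGTGTGA was in none of the 10 and in 1.275% of all windows. The Gabra2 window was the richest in G and C (70% GC with 25 CpG), and both Gabra3 windows held 0 CpG, against a median of 52.67% GC and 7 CpG over all windows.

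The recovered depth was 22.81 M to 31.71 M reads per library, and correlations between libraries of log2 values lay between 0.974 and 0.990. The labels gave 1 batch for all libraries. Markers of excitatory and other neurons (Slc17a7, Neurod6, Rbfox3) were present in every library, with Slc17a7 between 32390 and 47980 normalised reads. Markers of olfactory bulb projection neurons (Eomes, Tbx21, Cdhr1, Doc2g) were also at 0 in no library and varied widely, Eomes from 3.38 to 1401. Of the libraries, 9 had a striatal or olfactory marker mean more than 1 log2 unit above the median (4 HT fluoxetine, 2 HT lithium, 3 WT vehicle). HT fluoxetine male 4 had the lowest value of the 29 libraries in 10.4% of tested genes, followed by WT vehicle male 1 (8.32%), WT vehicle male 3 (7.33%) and HT fluoxetine female 1 (7.14%). Tbr1 itself was at 2866 ± 445 normalised reads in WT vehicle and 4067 ± 392 in HT vehicle (SD, n = 8 and 6), and its log2 difference of 0.52 ± 0.090 (SE) passed the test (limma, adjusted p = 0.0164), though not without HT vehicle female 1 (adjusted p = 0.0643) or male 3 (0.0962).

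Per kb of exon, Gabra3 was the most abundant of the 7 genes. In WT vehicle its level was 1162 ± 74.5 normalised reads per kb (SD, n = 8). Gabrb2 (662 ± 69.0), Gabrd (610 ± 33.4) and Gabra5 (577 ± 105) formed a middle group whose neighbours did not differ beyond their spread. Gabra4 followed at 458 ± 34.6. Gabrb1 (277 ± 16.8) and Gabra2 (221 ± 23.6) were the lowest of the 7, both above Gabrg1 (88.1 ± 9.99) and Gabrg3 (87.1 ± 7.52). Gabrq, Gabrr2 and Gabre were below 10 per kb. With the longest coding transcript as the length in place of all exons, the middle group did not hold: Gabrb2 was at 1056 ± 110 per kb, Gabrd at 912 ± 49.9 and Gabra5 at 642 ± 117, below Gabra4 at 678 ± 51.3. Gabrb1 and Gabra2 also changed places.

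**Figure D1:**
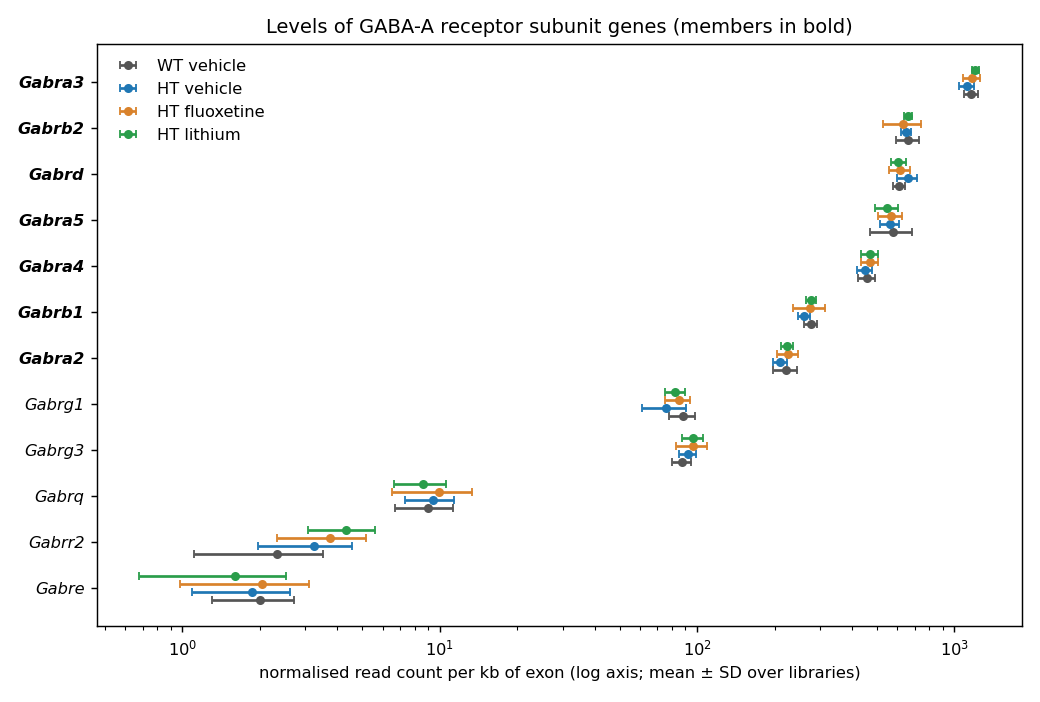
Level of each of 12 subunit genes in the 4 groups, as normalised reads per kb of exon (log axis). Points are group means and bars the SD over libraries; the 4 groups lie close together for each gene, and the 7 genes described (bold) span from 221 per kb for Gabra2 to 1162 per kb for Gabra3 in WT vehicle.

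The first question was whether the Tbr1 allele changed subunit expression. Across all 7 genes the HT and WT vehicle groups overlapped, and none of the 7 passed the test (limma, adjusted p from 0.392), beside 0.207% of all genes tested. At an unadjusted p under 0.05 there was 1 of 7, Gabrd, beside 12.3% of all genes. edgeR and DESeq2 on the recovered reads also called 0 of 7. In each of the 6 comparisons below the count was also 0 without HT fluoxetine male 4 and without the 9 libraries with high markers.

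Gabrd, whose product forms extrasynaptic receptors, ranged in WT vehicle from 1562 to 1837 normalised reads with a median of 1778. In HT vehicle it ranged from 1685 to 2177 with a median of 1853. Of the HT values, 5 of 6 lay above the WT median, and the groups overlapped. Between the genotypes the log2 difference was 0.11 ± 0.052 (SE), or 1.08-fold, with an unadjusted p of 0.0453 and an adjusted p of 0.392 (limma). The other 6 genes had differences between -0.09 and -0.02, all below 0, so that 1 of 7 lay above 0, beside 50.1% of all genes.

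Gabrb1, with the next smallest p, ranged from 3500 to 4196 in WT vehicle (median 3843) and from 3352 to 3878 in HT vehicle (median 3568). Of the HT values, 1 of 6 lay above the WT median, and the groups overlapped. The log2 difference was -0.09 ± 0.059 (adjusted p = 0.592, limma). Over the 7 genes the 95% confidence intervals, each for 1 gene and for the average of both sexes, ran from 0.863-fold to 1.16-fold. Within 1 sex they were wider, from 0.768-fold (Gabra5, males) to 1.26-fold (Gabra5, females).

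**Figure D2:**
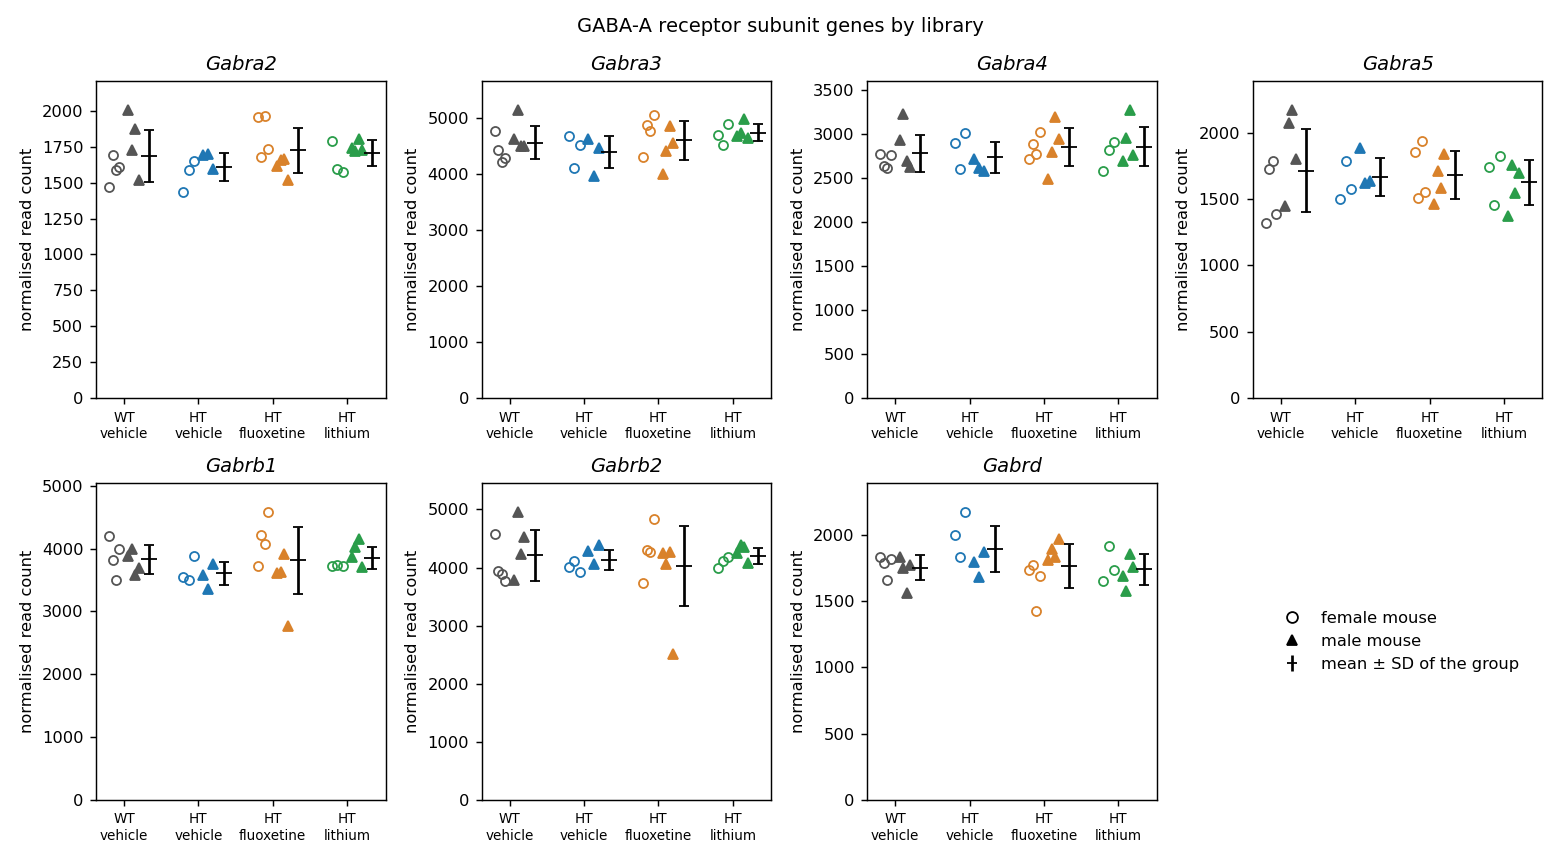
Normalised read count of the 7 subunit genes in each of the 29 libraries, by group, with open circles for females, filled triangles for males and the group mean ± SD in black. The groups overlap for every gene; HT fluoxetine male 4 is the low point for Gabrb1 (2772) and Gabrb2 (2507).

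The second question was whether fluoxetine, an inhibitor of serotonin reuptake, changed these genes in HT mice. None of the 7 passed (limma, adjusted p from 0.636), as was the case for all genes tested (0% called), with 0 of 7 at an unadjusted p under 0.05 beside 7.81% of all genes. Neither edgeR nor DESeq2 called any of the 7. Differences ran from 0.931-fold for Gabrd to 1.07-fold for Gabra2, with 95% confidence intervals between 0.851-fold and 1.15-fold.

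Gabrd ranged from 1424 to 1967 normalised reads under fluoxetine, with a median of 1790. The groups overlapped, with 2 of 8 fluoxetine values above the HT vehicle median of 1853. Relative to HT vehicle the log2 difference was -0.10 ± 0.052 (adjusted p = 0.636, limma). Gabra2, which encodes a synaptic alpha subunit, ranged from 1517 to 1966 with a median of 1675, against 1435 to 1703 and a median of 1622 in HT vehicle. Under fluoxetine all 4 female values (1682 to 1966) lay above all 4 male values (1517 to 1667), and 6.71% of all genes separated the sexes under fluoxetine in this way. The log2 difference over both sexes was 0.10 ± 0.052 (adjusted p = 0.657, limma).

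Gabrb2, a widespread beta subunit gene, ranged from 2507 to 4840 under fluoxetine, with a median of 4258. The value of 2507, from HT fluoxetine male 4, lay far below all others, and the remaining 7 values were between 3740 and 4840. The log2 difference from HT vehicle was -0.06 ± 0.086 with that library and 0.04 without it, and it did not pass either way (limma).

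The third question was whether lithium, a mood stabiliser, changed these genes in HT mice. Again none of the 7 passed (limma, adjusted p from 0.413), as for all genes tested (0% called). At an unadjusted p under 0.05 there were 2 of 7, Gabra3 and Gabrd, beside 11.4% of all genes. Neither edgeR nor DESeq2 called any of the 7. Differences ran from 0.922-fold to 1.08-fold, with confidence intervals between 0.854-fold and 1.16-fold.

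Gabra3, which encodes a synaptic alpha subunit, ranged from 4526 to 4982 normalised reads under lithium with a median of 4705. In HT vehicle it ranged from 3969 to 4682 with a median of 4488. Of the lithium values, 4 of 7 lay above the highest vehicle value, and the groups overlapped. The log2 difference was 0.11 ± 0.049 (unadjusted p = 0.0356, adjusted p = 0.413, limma).

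Gabrd ranged from 1579 to 1918 under lithium with a median of 1734, against 1685 to 2177 in HT vehicle. The lithium range began and ended lower than the vehicle range, and the groups overlapped. Lithium minus vehicle gave a log2 difference of -0.12 ± 0.054 (unadjusted p = 0.0390, adjusted p = 0.420, limma). For Gabrd the genotype and the drug comparisons share the 6 HT vehicle libraries, so the higher value in HT vehicle and the lower values under both drugs are not independent of each other.

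**Figure D3:**
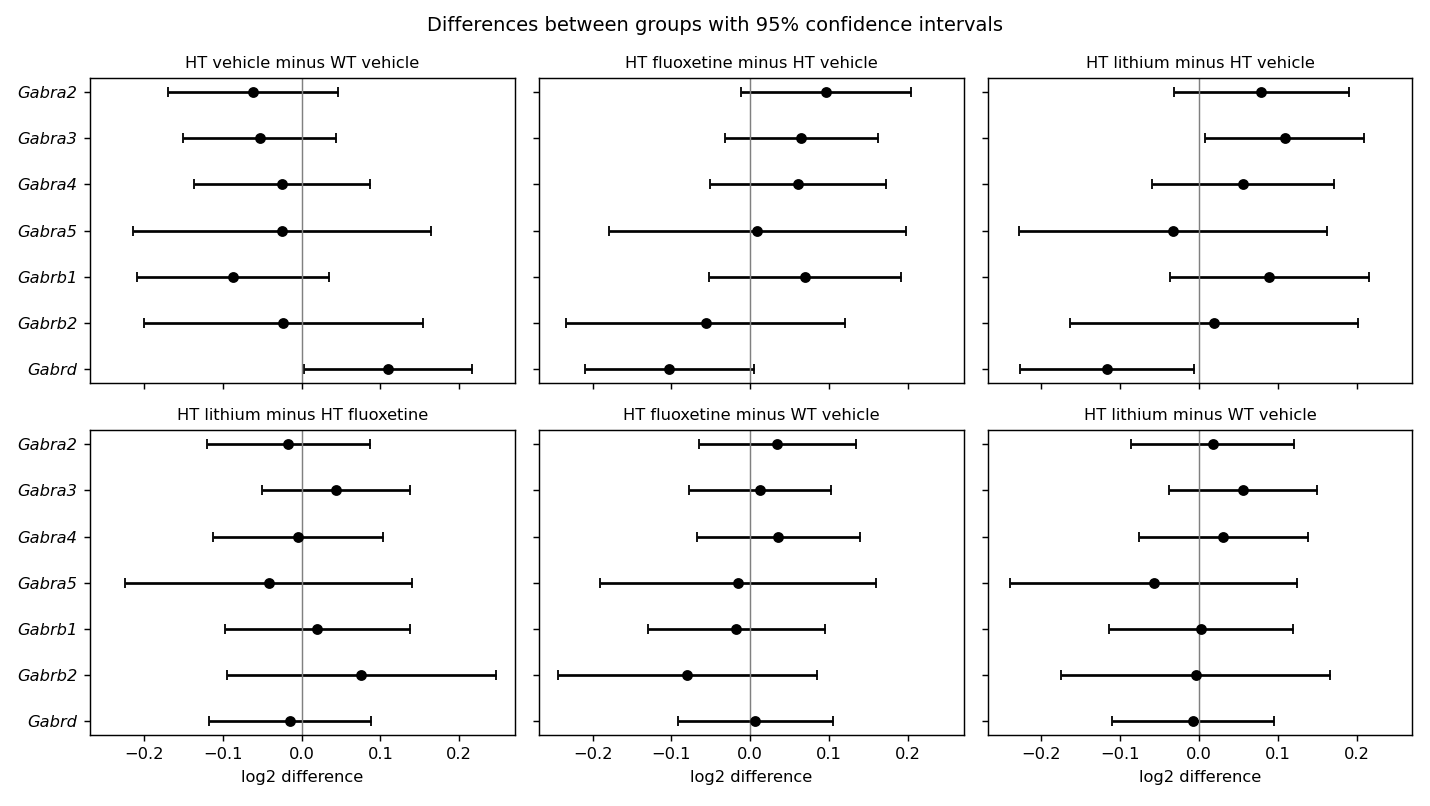
Log2 difference of each of the 7 genes in the 6 comparisons (x axis), with 95% confidence intervals from limma. No gene passed the adjusted threshold; the difference furthest from 0 is that of Gabrd in HT lithium minus HT vehicle, at -0.12, followed by Gabrd in HT vehicle minus WT vehicle and Gabra3 in HT lithium minus HT vehicle, both at 0.11.

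Lithium and fluoxetine did not differ from each other for any of the 7 genes beyond the spread (limma, 0 of 7, beside 0% of all genes, and 0 of 7 at an unadjusted p under 0.05 beside 3.5%; 0 by edgeR and by DESeq2). The intervals ran from 0.857-fold to 1.186-fold. Against WT vehicle, none of the 7 passed under fluoxetine (beside 0.19% of all genes; 0 of 7 at an unadjusted p under 0.05, beside 9.26%) or under lithium (beside 1.9% of all genes; 0 of 7 at an unadjusted p under 0.05, beside 18.6%). edgeR and DESeq2 called 0 of 7 in both. Gabrd was at 1752 ± 95.9 in WT vehicle, 1894 ± 172 in HT vehicle, 1765 ± 164 under fluoxetine and 1741 ± 117 under lithium (SD, n = 8, 6, 8 and 7). Over both sexes the fluoxetine and lithium means were within 1 SD of WT vehicle. The difference between HT vehicle and WT vehicle had itself not passed (adjusted p = 0.392, limma). By sex, Gabrd under fluoxetine was at 1655 ± 157 in females and 1876 ± 71.6 in males. WT vehicle was at 1775 ± 81.0 in females and 1730 ± 116 in males (SD, n = 4 each), so the fluoxetine means lay more than 1 SD away, in opposite directions.

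Within females, the differences between fluoxetine and HT vehicle lay furthest from 0 for Gabrd and Gabra2. Within males they did so for Gabrb2, at -0.20 ± 0.12 (adjusted p = 0.586, limma), with HT fluoxetine male 4 among the libraries. In females, Gabrd was at 1837, 2000 and 2177 in HT vehicle and at 1424, 1689, 1734 and 1771 under fluoxetine. These groups did not overlap, as was true of 9.13% of all genes tested. In males, Gabrd was at 1685, 1795 and 1870 in HT vehicle and at 1809, 1830, 1896 and 1967 under fluoxetine, and these groups overlapped. The log2 difference was -0.28 ± 0.073 in females (adjusted p = 0.148) and 0.07 ± 0.073 in males (adjusted p = 0.746, limma), where 0.028% and 0% of all genes passed. The difference between the sexes was -0.35 ± 0.10 (adjusted p = 0.154, limma), which did not pass.

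For Gabra2 in females, HT vehicle libraries were at 1435, 1591 and 1651 and fluoxetine libraries at 1682, 1737, 1955 and 1966, again without overlap. The log2 difference was 0.23 ± 0.074 (adjusted p = 0.202) in females and -0.04 ± 0.074 in males (limma). The difference between the sexes was 0.28 ± 0.10 (adjusted p = 0.244, limma). For Gabrb2 it was 0.29 ± 0.17 (adjusted p = 0.469, limma). None of the 7 genes passed a test of the sex difference for genotype, fluoxetine or lithium, beside 0%, 0.106% and 0% of all genes. At an unadjusted p under 0.05 the counts were 0, 2 and 0 of 7, beside 5.6%, 13.6% and 2.92% of all genes.

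In females, Gabrd also separated WT vehicle (1658, 1786, 1820 and 1837) from HT vehicle, by less than 1 normalised read at the closest pair. This separation occurred in 8.71% of all genes. In males, Gabra2 and Gabra3 separated HT vehicle from lithium (11.4% of all genes), with Gabra3 at 3969, 4461 and 4636 under vehicle and 4642, 4678, 4731 and 4982 under lithium. Gabra2 in males was also higher under lithium (1724, 1726, 1740 and 1806) than under fluoxetine (1517, 1618, 1659 and 1667), a separation seen in 5.19% of all genes. With both sexes together, no pair of groups was free of overlap for any of the 7 genes, beside 0.336% of all genes for HT vehicle against WT vehicle, 0.0615% for each comparison of fluoxetine with vehicle, 0.442% for lithium against WT vehicle, 0.542% for lithium against HT vehicle and 0.0447% for lithium against fluoxetine.

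Among the 29 libraries, Gabrb2 had the widest range of the 7 genes, its highest value being 1.98 times its lowest. Gabrb1 followed at 1.66 times, Gabra5 at 1.64, Gabrd at 1.53, Gabra2 at 1.40, Gabra4 at 1.32 and Gabra3 at 1.30. The coefficient of variation had a median of 8.31% over the 7 genes and of 6.28% over the 5842 genes with a mean of at least 1000. Gabra5 had the largest, 12.5%.

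The genes did not vary as 1 set. Of the 21 pairs, with group means removed, the correlations over 29 libraries had a median of 0.0269 and ran from -0.50 to 0.81. Gabrb1 and Gabrb2 gave Pearson's r = 0.81 and Spearman's rho = 0.65, and r = 0.59 without HT fluoxetine male 4. Gabra3 and Gabra4 gave r = 0.77 and rho = 0.76, and Gabra3 is on another chromosome than Gabra4. The head-to-head neighbours Gabra4 and Gabrb1 gave r = 0.39 and rho = 0.54 (r = 0.66 without HT fluoxetine male 4). Gabra5 and Gabrd ran opposite to each other, with r = -0.50 and rho = -0.48. These values share libraries and depth, and are given as a description.

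**Figure D4:**
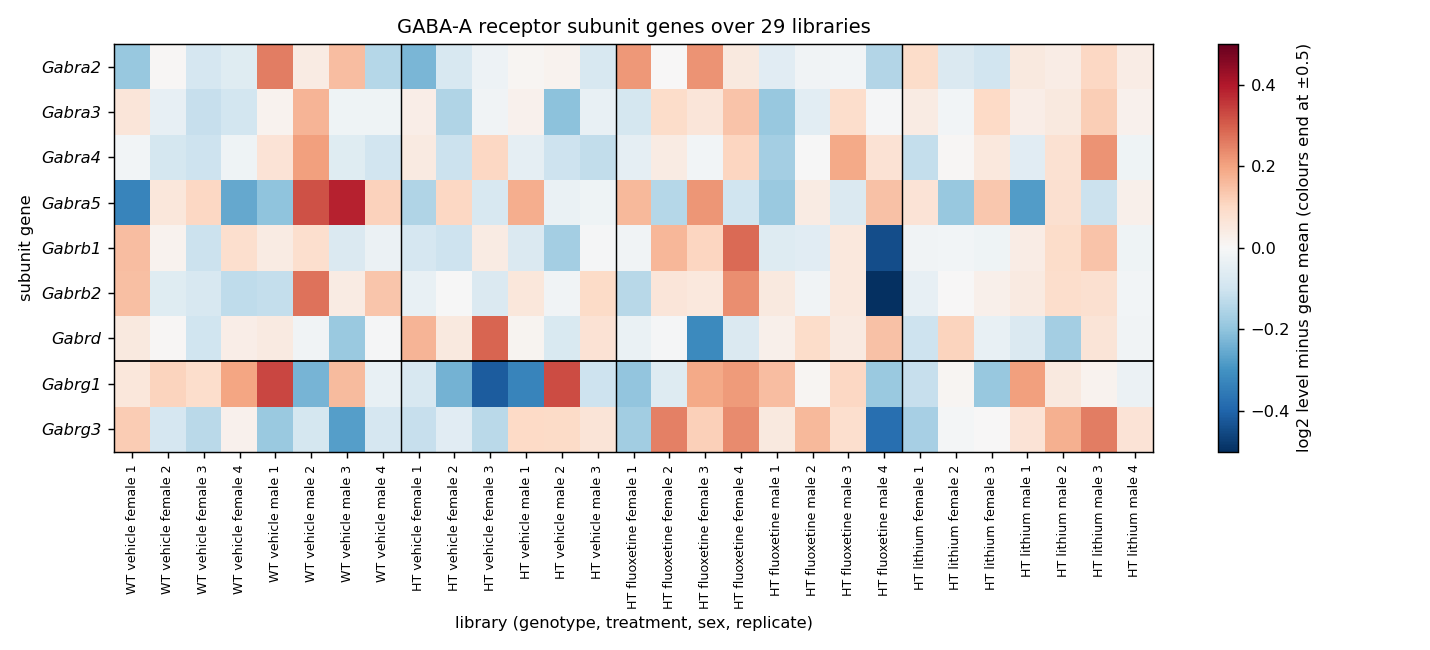
Log2 level minus the gene's mean over 29 libraries, for the 7 genes (above the line) and for Gabrg1 and Gabrg3 (below it), by library and group. HT fluoxetine male 4 is low for Gabrb1, Gabrb2 and Gabrg3, and Gabra5 spans its range within WT vehicle, from 1323 in female 1 to 2173 in male 3.

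Gabra5 followed the olfactory bulb markers across libraries. Its levels ran in WT vehicle from 1323 to 2173 normalised reads (median 1759), in HT vehicle from 1499 to 1886 (median 1630), under fluoxetine from 1460 to 1940 (median 1647) and under lithium from 1370 to 1826 (median 1693). The 4 ranges overlapped almost wholly, and WT vehicle alone spanned all of them. WT vehicle female 1 had the lowest Gabra5 of all libraries and a mean of the olfactory marker genes of -1.39 (log2, centred on all libraries), whereas WT vehicle male 3 had the highest Gabra5 and the highest marker mean, 1.56.

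In a limma fit with the 8 group means and the olfactory and striatal marker means, added after the data were seen, Gabra5 rose by 0.15 ± 0.027 (SE) log2 units per log2 unit of the olfactory marker mean (adjusted p = 0.000231, 29 libraries). Leaving out each library in turn gave slopes from 0.14 to 0.17, all past the threshold. Without the 9 libraries with high markers the slope was again 0.15 and did not pass (adjusted p = 0.118, limma), in a fit with fewer libraries. Among these 9, only HT fluoxetine female 1 and WT vehicle male 3 were left out for olfactory markers, the others for striatal markers. WT vehicle male 1 lay apart, with Gabra5 at 1447 at a marker mean of 0.88.

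Gabrb1 fell with the same marker mean, by 0.07 ± 0.023 log2 units (adjusted p = 0.0337, limma). This call was lost on leaving out any 1 of 7 libraries (HT fluoxetine females 1 and 4 and male 3, HT lithium males 3 and 4, WT vehicle females 1 and 3), with adjusted p from 0.0539 to 0.0952, and on leaving out the 9 libraries together (slope -0.05, adjusted p = 0.550). Gabra4 and Gabrd had slopes of -0.05 and Gabrb2 of -0.07, without passing, and Gabra2 and Gabra3 had slopes of 0.04 and -0.04. So 2 of 7 genes passed, beside 16.1% of all genes tested. On the striatal marker mean 0 of 7 passed in limma, beside 1.41% of all genes. In bulk tissue, fewer cells of a type and less RNA per cell cannot be told apart.

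**Figure D5:**
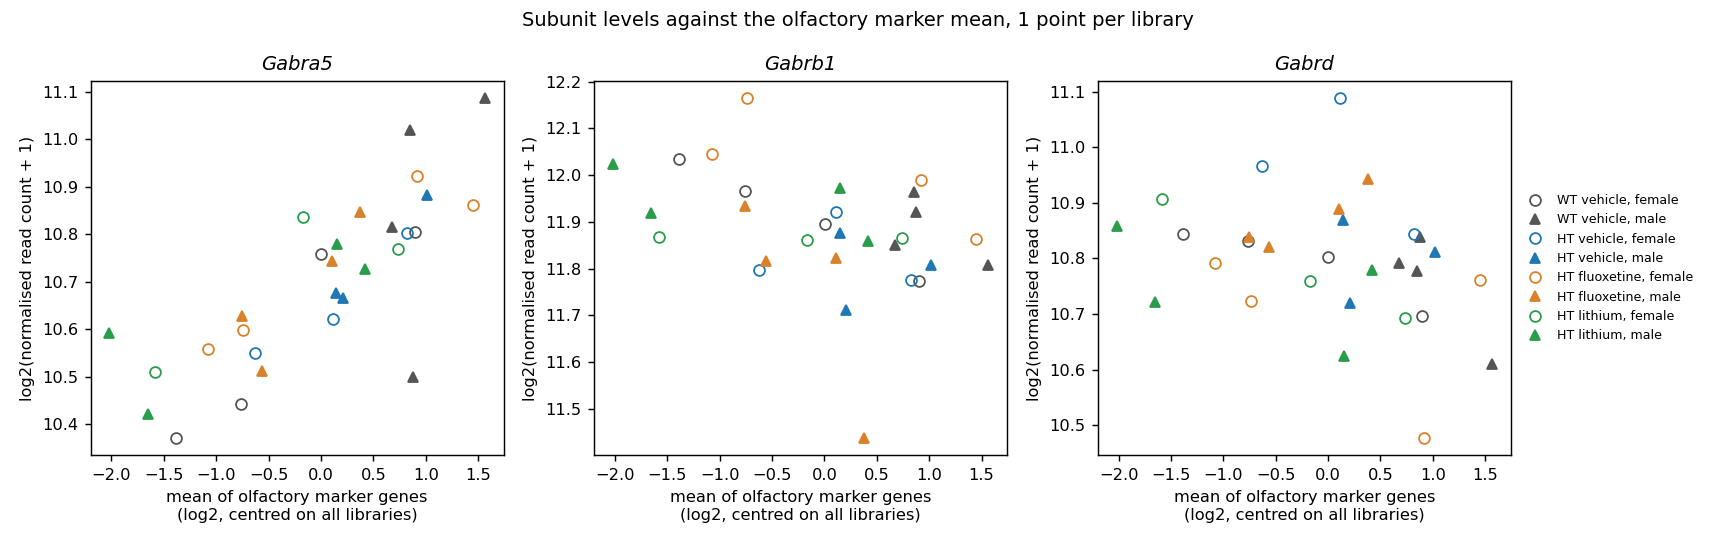
Level of Gabra5, Gabrb1 and Gabrd (log2 of normalised read count + 1) against the mean of 14 olfactory marker genes (log2, centred), 1 point per library. Gabra5 is higher in libraries with a higher marker mean, with a fitted slope of 0.15 within groups, and Gabrb1 is lower, with -0.07.

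The summed level of the olfactory markers overlapped between the 4 groups. It ranged from 12328 to 45433 normalised reads in WT vehicle, 14962 to 32515 in HT vehicle, 13262 to 41564 under fluoxetine and 11083 to 26884 under lithium. In HT lithium minus HT vehicle, 13 of 14 marker genes were below 0 with a median log2 difference of -0.91, and none passed (limma; 3 were lower at an unadjusted p under 0.05). Of all genes, 48.4% lay above 0 in this comparison and 5.48% were lower at that unadjusted p. With the marker means as covariates, the Gabra5 difference in this comparison moved from -0.03 ± 0.095 to 0.10 ± 0.066, and neither value passed (limma). In the other 5 comparisons the Gabra5 difference with these covariates was between -0.02 and 0.08. In HT fluoxetine minus HT vehicle all 19 striatal marker genes lay above 0, with a median log2 difference of 0.80 and none passing (limma; 8 were higher at an unadjusted p under 0.05). Of all genes, 47.8% lay above 0 in this comparison and 4.22% were higher at that unadjusted p. Their sum ranged from 8276 to 29644 normalised reads under fluoxetine and from 8490 to 10633 in HT vehicle. The slopes of the 7 subunit genes on the striatal mean, none of them called, had wide intervals, for Gabrb2 from -0.061 to 0.094. Without the 9 libraries with high markers the Gabrb2 slope was -0.41 (adjusted p = 0.441, limma). The part of striatal tissue in the subunit values was not tested.

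The genes whose profile was most like the mean of the 7 over 29 libraries were Gdap1 (Pearson's r = 0.82, Spearman's rho = 0.75), Cacnb4 (0.80 and 0.75), Atp2b1 (0.80 and 0.73), Man1a2 (0.80 and 0.75) and Psd3 (0.77 and 0.76), among 13821 genes. Without the 2 libraries furthest from the median of the mean, r lay between 0.71 and 0.74. These genes were picked as the highest of all those searched in the same data, and no chance level was computed. The mean also joins genes that did not vary together, so the list is a description only.

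The remaining genes of GABA signalling gave few calls. Of the 5 other subunit genes, none passed in any of the 6 comparisons (limma). At an unadjusted p under 0.05 in HT vehicle minus WT vehicle there was 1 of 5, Gabrg1, which encodes a gamma subunit (-0.22 ± 0.092, adjusted p = 0.308), beside 12.3% of all genes. Gabrr2, which encodes a rho subunit, was at an unadjusted p under 0.05 against WT vehicle under fluoxetine (0.64 ± 0.27, adjusted p = 0.475) and under lithium (0.84 ± 0.28, adjusted p = 0.117, limma), or 1 of 5 beside 9.26% and 18.6% of all genes. Its level was 2.32 ± 1.21 normalised reads per kb in WT vehicle, 3.76 ± 1.42 under fluoxetine and 4.34 ± 1.26 under lithium (SD, n = 8, 8 and 7). The highest Gabrr2 value was 9.74 normalised reads in WT vehicle, 12.2 under fluoxetine and 12.7 under lithium. No WT vehicle library thus reached the filter value of 10, and Gabrr2 was tested only through HT libraries. Its p-values are therefore no evidence of a difference.

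Among 16 genes of receptor assembly and anchoring, 1 passed in 1 of the 6 comparisons, HT lithium minus WT vehicle. In that comparison 1.9% of all genes tested passed, 1.33% higher and 0.57% lower. Trak1, which encodes a kinesin adaptor of mitochondria that also associates with GABA-A receptors, was higher in HT lithium than in WT vehicle by 0.16 ± 0.039 log2 units, or 1.12-fold (adjusted p = 0.0320, limma). That call was lost in 12 of 43 other settings with the same threshold, including those with marker covariates (adjusted p = 0.116) and on leaving out the 9 high-marker libraries together (adjusted p = 0.246). Of the 12, 9 left out 1 library each (HT lithium female 3, HT lithium males 1 and 3, WT vehicle females 1, 2 and 3, WT vehicle males 1, 2 and 3), with adjusted p from 0.0501 to 0.128. In HT vehicle minus WT vehicle, Nlgn2, which encodes an adhesion protein of inhibitory synapses, was at 0.11 ± 0.036 (adjusted p = 0.182), and Shisa7, an auxiliary subunit gene, at 0.12 ± 0.043 (adjusted p = 0.213).

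Of 10 genes of GABA synthesis, transport and chloride balance, none passed in any comparison (limma). Slc12a5, the neuronal chloride exporter that sets the direction of the GABA current, came closest in HT vehicle minus WT vehicle at 0.17 ± 0.039 log2 units, or 1.13-fold (adjusted p = 0.0583). It passed in 10 of 43 other settings with the same threshold, among them DESeq2 (adjusted p = 0.00350) and marker covariates (0.0271). It also passed on leaving out HT fluoxetine female 1 (0.0452), HT vehicle female 2 (0.0491) or male 2 (0.0128), or WT vehicle male 2 (0.0489) or male 4 (0.0294). In the other 33 settings, edgeR among them, it did not pass, with adjusted p up to 0.420. In HT lithium minus WT vehicle 4 of 10 were at an unadjusted p under 0.05, beside 18.6% of all genes. Besides Slc12a5 (0.11 ± 0.037) these were Gad2, which makes GABA (-0.20 ± 0.094), Slc6a11, a GABA transporter of astrocytes (-0.38 ± 0.16), and Abat, which breaks GABA down (-0.12 ± 0.053), with adjusted p from 0.132 to 0.248 (limma); the last 3 are named with their values already seen. None of the 14 interneuron markers passed in any comparison.

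Outside GABA signalling, some listed cell markers passed (limma). In HT vehicle minus WT vehicle, 1 of 12 astrocyte markers was higher and 1 lower, beside 0.162% and 0.0447% of all genes. In HT lithium minus WT vehicle, 2 of 9 excitatory neuron markers were higher, and 2 of 12 astrocyte and 3 of 9 endothelial and mural markers were lower, beside 1.33% of all genes higher and 0.57% lower. Their part in the subunit values was not tested.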

How the data were processed

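Bulk RNA was sequenced from 29 prefrontal cortex libraries, prepared with a stranded mRNA kit, per the labels' protocols. The authors deposited a normalised signal for each gene, which the values show to be read counts scaled by a size factor specific to the library. After division by the step of its library, 100% of values were whole within 0.0001, although in 3 libraries that step lay near 1. The submitters' processing notes name Salmon 0.11.2, R 3.6.0, DESeq2 1.19.11 and GRCm38 with no role, and the strand setting of the counting is not given in the sources used here. Without it, reads of Gabra4 and Gabrb1 in their shared 46 bp, and of Gabra5 and its antisense neighbour Gm9962 in 148 bp, cannot be told apart.

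Of 18240 identifiers, 18227 matched a GENCODE annotation of GRCm38. A gene was tested if 3 or more libraries reached a value of 10, which left 17881. limma 3.58.1 (R 4.3.3) was run on log2(value + 1), fitting a mean to each combination of genotype, treatment and sex with an intensity trend, which left 21 residual degrees of freedom. Fold changes are on that scale. P-values were two-sided and adjusted by Benjamini-Hochberg across the 17881 genes, and a gene passed at an adjusted p under 0.05. For both sexes together, the female and male differences were averaged. The fit was tested on simulated data. edgeR 4.0.16 and DESeq2 1.42.0 were run on the recovered reads as alternatives. Levels per kb divide by the summed length of a gene's exons. That libraries come from separate mice is not stated, so p-values measure the spread between libraries.

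All 7 genes are described in every group. Of the other GABA signalling lists, the text names genes past the threshold, up to 4 per comparison, or at most 2 with the smallest p where none passed. Exceptions are stated where they occur. Cell markers past the threshold are given as counts. The most alike genes are the 5 others with the highest Pearson's r and a mean of at least 50. The 7 genes and all lists were chosen with earlier results of these data known. Some genes of these lists are not reported here.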

Additional observations from a re-analysis of the deposited data

Results flagged for a closer look

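In 28 groups checked (7 genes in 4 groups), 1 library stood apart from its group by Dixon's gap rule, which flags about 1 in 20 groups by chance. Gabrb2 was at 2507 normalised reads in HT fluoxetine male 4, while the other 7 fluoxetine libraries were at 3740 to 4840. The same library had the lowest Gabrb1 of all libraries, 2772, and the lowest value in 10.4% of tested genes, where the next library, WT vehicle male 1, had 8.32%.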

How the results depend on the processing

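In each of the 6 comparisons, 0 of the 7 genes passed under all 44 other settings, including edgeR and DESeq2 on the recovered reads, other scalings, pseudocounts of 0.5 and 10, a filter at 50 or none, marker covariates, and leaving out each library in turn. The smallest adjusted p among them was 0.247 (Gabrd, HT vehicle minus WT vehicle, without HT vehicle female 2). Of 1848 such differences, 100 changed sign, and all lay between -0.16 and 0.14 (log2). Many of the 1848 could not change. Leaving out a library of a group outside the comparison, or altering only the threshold or the filter, keeps the difference as it was. The share with a changed sign therefore understates how far the signs depend on the settings. Deviations from the group means correlated from -0.264 to 0.311 between same-numbered libraries (median -0.0137). Between libraries with other numbers the correlations ran from -0.307 to 0.269 (median 0.00439). The numbers are those of the labels, which for HT vehicle females differ from the numbers in the library names. Whether the numbers pair the samples therefore cannot be told from these values. The fit with the replicate block also gave 0 of the 7 genes. The slope on the olfactory marker mean passed for 2 of the 7 genes, for 1 to 3 on leaving out 1 library, and for 0 without the 9 libraries with high markers. That last fit has fewer samples. Counts over all genes moved more: for HT vehicle minus WT vehicle 37 genes passed, with 8 when only these groups were fitted, 18 with sex as an additive term, 63 with the filter at 50, 82 with the block, 94 with marker covariates, 6 without the libraries with high markers, 219 with DESeq2, and 2 to 176 on leaving out 1 library. For HT lithium minus WT vehicle 340 passed, with 185, 34 and 573 with marker covariates, without the libraries with high markers and with DESeq2 and 85 to 723 on leaving out 1 library. For HT fluoxetine minus WT vehicle 34 passed, with 0 when only these groups were fitted, 63, 95, 3 and 94 under the block, covariates, without high markers and DESeq2, and 10 to 98 on leaving out 1 library. The cause was not tested. For both drugs against HT vehicle, and between the drugs, 0 genes passed, with up to 32 in DESeq2.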
